A study of Rattus norvegicus with 3 samples.

Results

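Parvalbumin-type fast-spiking interneurons were taken from single-nucleus RNA libraries of rat brain as nuclei that carried a set of genes enriched in this cell class. A nucleus with at least 500 detected genes was a member when it held at least 1 unique molecular identifier (UMI, a counted RNA molecule) of Gad1 or Gad2, at least 1 of Erbb4 and at least 2 over Adamts15, Kcns3, Tmem132c, Btbd11 and Pde5a from at least 2 of those genes. It also had to hold 0 UMIs of Sst, Vip, Slc17a7 and Rarb. The rule lists Pvalb too, whose values were not analysed here, so that 5 of its 6 enriched genes contributed. In all, 804 of 44950 nuclei were members, 321 after saline, 265 after lipopolysaccharide (LPS) and 218 after poly(I:C).

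Each library pooled the brains of 4 wild-type female Crl:CD(SD) rats, 12 weeks old, killed 7 h after 1 intraperitoneal injection. The saline group was the sham control, the LPS group received 5 mg/kg of this bacterial cell wall component, and the poly(I:C) group received 12 mg/kg of this synthetic double-stranded RNA. The study asked how cells of the central nervous system respond to these systemic challenges. With 1 library a group and no map from nuclei to animals, no comparison has a replicate check, no p-value is given, and every 95% interval covers counting error only.

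Parvalbumin-type interneurons release GABA onto the soma, proximal dendrites or axon initial segment of their targets and fire long trains of brief spikes, for which they depend on fast Kv3 potassium channels. They arise from the medial ganglionic eminence under the transcription factors Lhx6 and Sox6, receive excitatory input through GluA4-containing AMPA receptors, and are often wrapped in perineuronal nets. Type I interferon acts on most cells, neurons included, through its receptor Ifnar1 and Ifnar2 and induces a shared set of antiviral genes.

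The number of UMIs differed between the libraries' members. The median member held 1791 UMIs and 1116 genes after saline, 3071 UMIs and 1601 genes after LPS, and 1566.5 UMIs and 989 genes after poly(I:C). Their summed UMIs were 657078, 904183 and 381808, so low genes were measured least precisely after poly(I:C). Libraries shared 247 to 550 cell barcodes in pairs, and no barcode was a member in both libraries of a pair.

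Members made up 1.5% of nuclei after saline (exact 95% interval 1.35 to 1.68%), 2.53% after LPS (2.23 to 2.84%) and 1.66% after poly(I:C) (1.45 to 1.90%). The LPS share was the highest of the 3. The rule needs several UMIs, which greater depth makes easier to meet, and 0 UMIs of some genes, which it makes harder. Of Gad-positive nuclei, 8.615%, 11.019% and 8.993% were members after saline, LPS and poly(I:C). In the same order, excitatory nuclei made up 10.6%, 16.2% and 10.3% of all nuclei. Nuclei with Sst made up 0.380%, 0.963% and 0.526%, and nuclei with Vip 0.206%, 0.496% and 0.229%. All of these shares were highest after LPS. As an alternative, every nucleus was thinned to 1000 UMIs before the rule was applied. The members' shares were then 0.713% after saline (0.586 to 0.860%), 0.591% after LPS (0.445 to 0.768%) and 0.879% after poly(I:C) (0.707 to 1.08%). This thinning left out nuclei under 1000 UMIs and kept 15285, 9310 and 10238 nuclei. The LPS share was the lowest of the 3 there, with an interval that overlaps the other 2. It stayed the highest with at least 1000 genes, at 3.21% against 2.61% and 2.39%. That filter sets only a minimum and does not make depth equal. The part of depth in the shares was not tested further. Among Slc17a7-positive, Gad-negative excitatory nuclei, which should lack this gene set, 0.441%, 0.294% and 0.443% met the Erbb4 and enriched-gene parts of the rule after saline, LPS and poly(I:C).

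The members were chosen by their measured UMIs of the rule's genes, which are described here without a test. Erbb4, the neuregulin receptor, stood at 9834 CPM after saline, 11406 after LPS and 11459 after poly(I:C), where CPM counts a gene's UMIs per 1000000 UMIs of the nuclei described. Btbd11 stood at 685, 491 and 676, Pde5a at 461, 316 and 471, and Tmem132c at 327, 279 and 411 CPM in the same order. Kcns3, a modifying potassium channel subunit, stood at 167, 146 and 233, and Adamts15, a matrix protease, at 77.6, 79.6 and 107. All of these but Erbb4 and Adamts15 were lowest in the LPS library, the deepest one. The part of depth in these levels was not tested.

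At the edge of the rule, 105, 60 and 72 members after saline, LPS and poly(I:C) held exactly the 2 enriched-gene UMIs required. Another 462, 237 and 277 nuclei met every other condition and held 1 such UMI. Kcnc1, which encodes the Kv3.1 channel and is outside the rule, stood at 423, 425 and 524 CPM just inside and at 315, 258 and 377 just outside. Adarb2, a marker of interneurons from the caudal ganglionic eminence, stood at 1963, 2584 and 1984 just inside and at 3040, 4366 and 3492 just outside. A further 167, 134 and 59 nuclei failed only because their enriched-gene UMIs, 2 or more, came from 1 gene. Their Kcnc1 stood at 439, 291 and 308 CPM and their Adarb2 at 2865, 4298 and 662, so the saline Kcnc1 level lay above that just inside the rule and the poly(I:C) Adarb2 level below it.

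The label was checked on genes outside the rule, against nuclei with Sst (81 after saline, 101 after LPS and 69 after poly(I:C)), nuclei with Vip (44, 52 and 30) and excitatory nuclei (2267, 1700 and 1354). Kcnc1 reached 530 CPM in members after saline, 473 after LPS and 563 after poly(I:C). It reached 219, 184 and 213 in Sst-type, 218, 164 and 179 in Vip-type and 96.3, 72.6 and 83.6 in excitatory nuclei. The Kv3.1 gene was therefore higher in members than in each of the other kinds in all 3 libraries. At 1000 UMIs a nucleus, 45.6%, 40.0% and 42.1% of members held a Kcnc1 UMI, against 9.26%, 6.77% and 8.26% of excitatory nuclei. Without thinning these shares were 62.3%, 76.6% and 56.9% of members and 15.9%, 23.2% and 14.4% of excitatory nuclei, at the greater depth of the LPS library.

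Other defining genes lay the same way. Kcnc2, the Kv3.2 gene, stood at 2717, 3050 and 3025 CPM in members and at 1632, 2086 and 1845 in Sst-type nuclei. Cntnap4, a synaptic adhesion gene of these cells, stood at 913, 735 and 998 in members against 261, 316 and 169 in Sst-type and 269, 207 and 223 in Vip-type nuclei. Syt2, the fast calcium sensor of their terminals, stood at 33.5, 34.3 and 41.9 in members, at 7.07, 0 and 0 in Sst-type nuclei and at 0 in all Vip-type libraries. Genes common to the medial ganglionic eminence lineage did not set members apart from Sst-type nuclei: Sox6 stood at 880, 918 and 1014 against 657, 1113 and 745, and Satb1 at 236, 236 and 267 against 261, 323 and 302. Of the 18 markers outside the rule, Cox6a2 was at 0 UMIs in all members. Their sum was 9456, 10259 and 10351 CPM in members, 6267, 8328 and 7329 in Sst-type, 2854, 2733 and 2590 in Vip-type and 1700, 1473 and 1483 in excitatory nuclei, so over the whole list the members lay nearest to Sst-type nuclei. Lhx6 was sparse in members, at 21.3, 26.5 and 23.6 CPM.

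**Figure D1:**
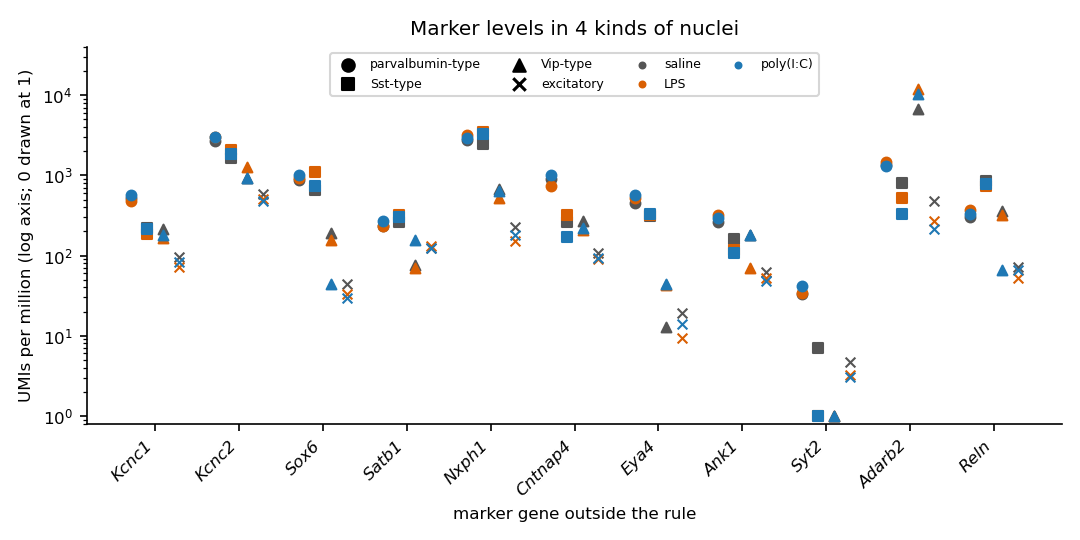
Levels of 11 marker genes outside the rule in CPM (log axis, 0 drawn at 1), with 1 symbol per kind of nuclei and 1 colour per library. Kcnc1, Kcnc2, Cntnap4, Ank1 and Syt2 lie highest in parvalbumin-type nuclei, while Adarb2 lies highest in Vip-type nuclei, at 6731, 12137 and 10380 against 1332, 1474 and 1299 in parvalbumin-type nuclei.

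The members were not uniform. Sox6 without Adarb2 was detected in 177 members after saline (55.1%), 160 after LPS (60.4%) and 128 after poly(I:C) (58.7%). Adarb2 without Sox6 was detected in 43 (13.4%), 38 (14.3%) and 32 (14.7%), both genes in 45, 32 and 17, and neither in 56, 35 and 41. The nuclei with Adarb2 alone carried Reln at 1056, 1645 and 1270 CPM and the cannabinoid receptor gene Cnr1 at 341, 908 and 313. In the nuclei with Sox6 alone these genes stood at 225, 225 and 156 and at 35.1, 49.5 and 17.9. Kcnc1 lay the other way, at 612, 541 and 585 with Sox6 alone against 297, 227 and 429 with Adarb2 alone, as did Eya4, at 562, 714 and 683 against 77.0, 18.9 and 181. These 13.4 to 14.7% of members thus went against the label on Reln and Cnr1, while their Kcnc1 level still lay above that of Sst-type and Vip-type nuclei.

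RNA of other cell types was also present. Summed astrocyte markers stood at 317, 336 and 325 CPM in members after saline, LPS and poly(I:C), oligodendrocyte markers at 237, 200 and 233, and striatal projection neuron markers at 1202, 925 and 935. Microglial markers gave 2, 10 and 7 UMIs. Endothelial markers gave 35, 7 and 2 UMIs (53.3, 7.74 and 5.24 CPM), and mural or fibroblast markers 16, 2 and 0, so vascular RNA was highest in saline members. This was not particular to members. Endothelial markers stood at 77.7, 10.4 and 8.87 CPM in Sst-type, 89.6, 8.62 and 44.6 in Vip-type and 40.5, 10.2 and 6.78 in excitatory nuclei. Mural or fibroblast markers were also highest after saline in Sst-type and excitatory nuclei, but not in Vip-type nuclei (3, 1 and 5 UMIs). The libraries were made from whole brain, so the region each member came from is not known.

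**Figure D2:**
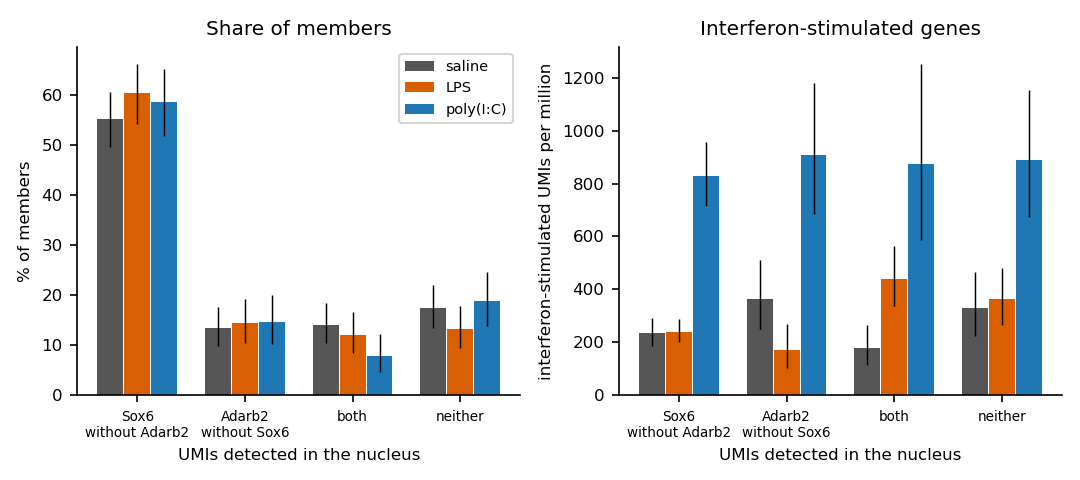
Left, percentage of members in which Sox6, Adarb2, both or neither were detected, per library. Right, summed interferon-stimulated CPM in the same nuclei, with bars for each library and exact 95% intervals. Nuclei with Sox6 alone are the most frequent in each library, and the poly(I:C) bar is the highest in all 4 kinds, between 830 and 907.

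After poly(I:C) the members carried more RNA of interferon-stimulated genes, and after LPS they did not differ from saline beyond counting error. The 56 genes of this list that were present in the files gave 167 UMIs in saline members (254 CPM), 254 in LPS members (281) and 327 in poly(I:C) members (856). The sum was 3.37-fold higher after poly(I:C) than after saline (2.79 to 4.09) and 1.11-fold that of saline after LPS (0.906 to 1.35). It was 0.328 times as high after LPS as after poly(I:C) (0.277 to 0.388). At least 1 UMI was seen of 24 of the 56 genes after saline, of 36 after LPS and of 44 after poly(I:C), although the poly(I:C) members held the fewest UMIs in all.

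**Figure D3:**
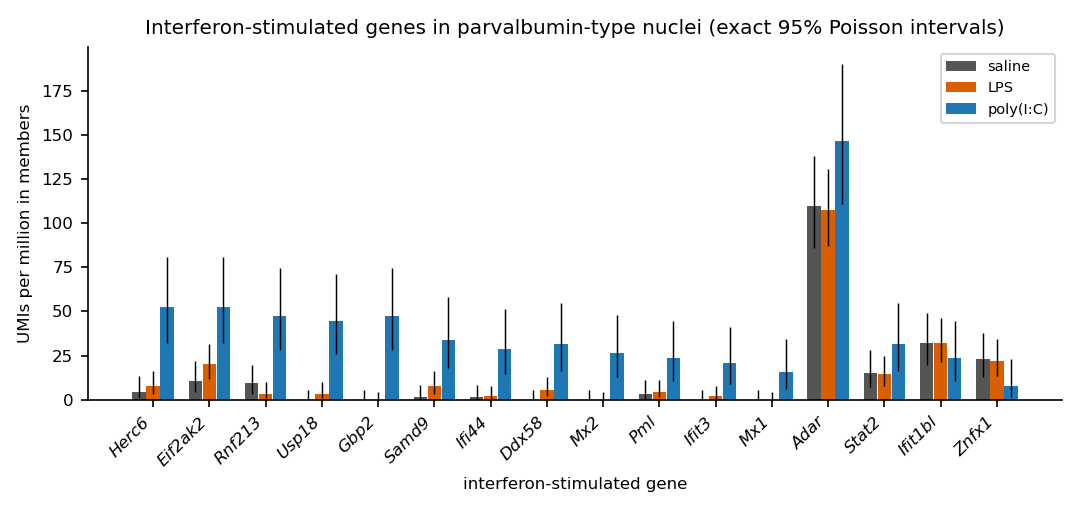
CPM of 16 interferon-stimulated genes in parvalbumin-type nuclei, as bars per library with exact 95% Poisson intervals. Herc6, Eif2ak2, Rnf213, Usp18 and Gbp2 reach 44.5 to 52.4 after poly(I:C), while Adar, at 110, 107 and 147, is high in all 3 libraries.

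Among sensors and effectors of double-stranded RNA, Eif2ak2, which encodes the kinase PKR, had 7 UMIs after saline, 18 after LPS and 20 after poly(I:C) (10.7, 19.9 and 52.4 CPM). It was 4.92-fold higher after poly(I:C) (2.0 to 13.8), while the LPS ratio of 1.87 had an interval that includes 1 (0.745 to 5.29). Ddx58, which encodes the RNA sensor RIG-I, had 0, 5 and 12 UMIs, at least 6.88-fold higher after poly(I:C) with 0 UMIs set to the floor of 3 per library. The poly(I:C) level of both genes lay above the other 2 libraries.

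Adar, which encodes an enzyme that deaminates adenosine in double-stranded RNA, had 72, 97 and 56 UMIs (110, 107 and 147 CPM), with ratios of 0.979 after LPS (0.714 to 1.35) and 1.34 after poly(I:C) (0.927 to 1.92). This 1 gene made up 25.9% of the list's UMIs over the saline and poly(I:C) members. Ifit1bl, with 21, 29 and 9 UMIs, and Znfx1, with 15, 20 and 3, also had no higher level after poly(I:C), and their ratios to saline were 0.738 (0.297 to 1.68) and 0.344 (0.0639 to 1.22). Adar, Ifit1bl and Znfx1 were the 3 genes with most saline UMIs. The other 53 genes summed to 59, 108 and 259 UMIs (89.8, 119 and 678 CPM), 7.55-fold higher after poly(I:C) (5.67 to 10.2) and 1.33-fold after LPS (0.960 to 1.86). This split was made on the saline counts, which raises the ratios of the genes that remain, so these values are a description.

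Among ubiquitin-related members, Herc6, the main ligase for the ubiquitin-like protein ISG15 in rodents, had 3, 7 and 20 UMIs (4.57, 7.74 and 52.4 CPM). It was 11.5-fold higher after poly(I:C) (3.4 to 60.3), in 17 nuclei. Rnf213, a giant ubiquitin ligase, had 6, 3 and 18 UMIs and was 5.16-fold higher (1.96 to 15.9). Usp18, which removes ISG15 and restrains receptor signalling, had 0, 3 and 17 UMIs and was at least 9.75-fold higher. These 3 genes were thus low in saline and LPS members alike.

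Except for Samd9, the following genes fell outside the naming rule and were chosen after their values were seen. Gbp2, a guanylate-binding GTPase, had 0, 0 and 18 UMIs, the last in 10 nuclei. Samd9 had 1, 7 and 13, Ifi44 had 1, 2 and 11, and Pml, of nuclear bodies, had 2, 4 and 9. The antiviral GTPases Mx2 and Mx1 had 0, 0 and 10 and 0, 0 and 6, and Ifit3 had 0, 2 and 8. They show the size of the counts behind the list's sum and are no added support for it.

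Stat2, a transcription factor that carries the type I interferon signal, had 10, 13 and 12 UMIs (15.2, 14.4 and 31.4 CPM), and its poly(I:C) ratio of 2.07 had an interval that includes 1 (0.818 to 5.34). Of the 6 list genes with at least 20 UMIs over saline and poly(I:C), 4 were at least 2-fold higher after poly(I:C), namely Herc6, Eif2ak2, Rnf213 and Stat2. Over all 6541 genes so measured, 1.59% lay at 2-fold or more above saline and 3.67% at 2-fold or more below it. Since a gene that is rare in saline passes this UMI minimum only where it is high after poly(I:C), the 4 of 6 is a description. The same holds for the median log2 ratio of the 6, 1.67, beside -0.03 over all genes. Of the 5 list genes with 20 UMIs over saline and LPS, none was 2-fold higher or lower after LPS, where the shares of all 7865 genes were 1.4% and 2.24%.

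The higher poly(I:C) sum was spread over many nuclei. Of the list's UMIs, 17.1% lay in the 3 poly(I:C) nuclei with most, 28 of them in 1 nucleus that held 16 of the genes, and without the top nucleus of each library the ratio was 3.18 (2.61 to 3.87). At least 2 different list genes were detected in 30 saline members (9.35%), 58 LPS members (21.9%) and 73 poly(I:C) members (33.5%). At 1000 UMIs a nucleus, at least 1 list UMI was found in 19.6% of saline members (15.2 to 24.7%), 23.8% of LPS members (18.8 to 29.4%) and 47.7% of poly(I:C) members (40.6 to 54.9%). At least 2 were found in 3.51%, 3.4% and 19.8%. Unthinned, at least 1 was found in 34.9%, 50.9% and 59.6%. The thinned saline and LPS intervals for at least 1 UMI overlap. The thinned shares covered the 285, 265 and 197 members that had 1000 UMIs.

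**Figure D4:**
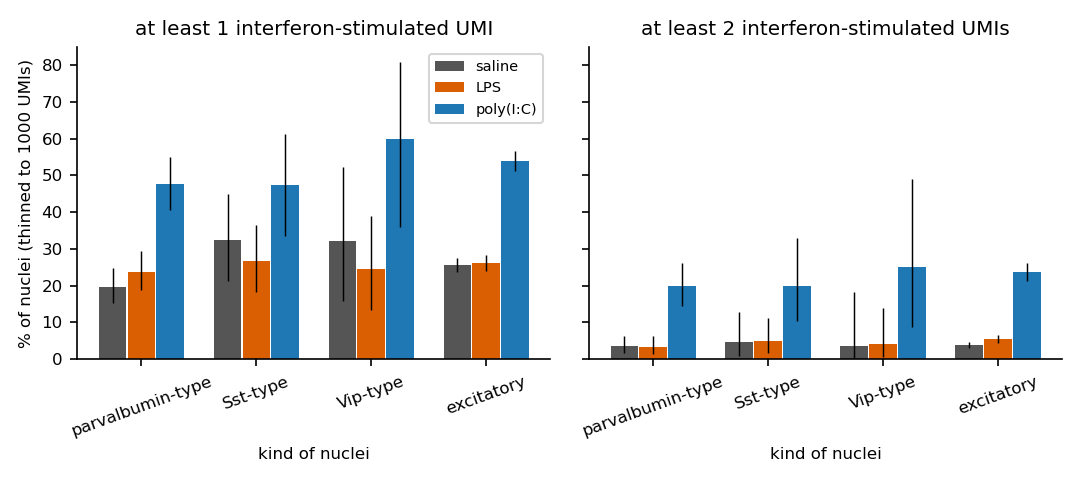
Percentage of nuclei with at least 1 (left) and at least 2 (right) UMIs of interferon-stimulated genes after thinning to 1000 UMIs, for 4 kinds of nuclei and 3 libraries, with exact 95% intervals. The poly(I:C) bar is the highest in each kind, with 47.7% of parvalbumin-type nuclei holding at least 1 such UMI.

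The same sums in other neurons show how far the members differed from them. The poly(I:C) to saline ratio was 2.05 in Sst-type (1.42 to 2.99), 4.24 in Vip-type (2.83 to 6.47) and 3.68 in excitatory nuclei (3.45 to 3.93). The members' ratio was 0.915 times that of excitatory nuclei (0.751 to 1.11) and 0.795 times that of Vip-type nuclei (0.515 to 1.23), intervals that include 1. It was 1.64 times that of Sst-type nuclei (1.10 to 2.46), a difference beyond counting error that was not tested over animals. After LPS the ratio over all nuclei was 1.54 (1.51 to 1.58), and in excitatory nuclei 1.18 (1.10 to 1.26), against 1.11 in members. In Sst-type nuclei it was 0.874 (0.609 to 1.27) and in Vip-type nuclei 0.751 (0.463 to 1.22), intervals that include 1 as the members' does. Thinned shares with at least 1 list UMI after poly(I:C) were 54.0% in excitatory, 47.3% in Sst-type and 60.0% in Vip-type nuclei. After saline and after LPS the members had the lowest level of the list, 254 and 281 CPM against 346 and 303 in Sst-type, 448 and 336 in Vip-type and 301 and 354 in excitatory nuclei. After saline their interval (217 to 296) overlapped those of Sst-type (256 to 458) and excitatory nuclei (285 to 318), but not Vip-type (312 to 623). After LPS it (247 to 318) overlapped those of Sst-type (242 to 373) and Vip-type nuclei (239 to 460), but not excitatory (340 to 369). After poly(I:C) the members' 856 CPM (766 to 955) lay below the 1898 of Vip-type and 1108 of excitatory nuclei. It lay above the 710 of Sst-type nuclei (563 to 883), with intervals that overlap. All kinds of nuclei were higher after poly(I:C), and the part of free RNA in the members' values was not tested.

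Single genes did not all keep the same proportions in the 2 classes. Herc6 was 11.5-fold higher in members and 3.86-fold higher in excitatory nuclei (3.14 to 4.76), and Rnf213 was 5.16-fold higher in members and 31.2-fold higher in excitatory nuclei (17.5 to 61.3). For Herc6 the intervals overlap, and for Rnf213 they do not, but neither difference was tested. Within the members, the list stood at 234, 240 and 830 CPM with Sox6 alone after saline, LPS and poly(I:C), and at 363, 170 and 907 with Adarb2 alone. With neither gene it stood at 328, 361 and 891. With both genes it stood at 177 (112 to 266), 439 (337 to 562) and 873, in 45, 32 and 17 nuclei. There the saline and LPS intervals did not overlap, unlike over all members, a difference that was not tested. The poly(I:C) level was the highest in each of these kinds of member. In members with 0 UMIs of Adarb2, Lamp5, Meis2, Drd1, Drd2, Slc17a6, Gata3 and Tcf7l2, markers of other neurons, the poly(I:C) ratio of the list was 2.53.

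Interferon-stimulated genes share a promoter element, the interferon-stimulated response element, whose core was searched as GAAA, any 2 bases and GAAA again, on either strand, in RefSeq windows of 300 bases (250 before to 50 after the start, GRCr8 build, whereas the reads were counted on mRatBN7.2). The core was found in 29 of 47 windows of the list (61.7%; 44 of 56 symbols matched), in 1312 of all 33469 windows (3.92%), in 2 of 23 windows of immediate early genes (8.70%) and in 1 of 32 of potassium channel genes (3.13%). The windows below belong to genes whose UMIs were highest in poly(I:C) members, with matches in capitals and each sequence written 5′ to 3′ along the gene's sense strand. No match lay in the windows of Herc6, Rnf213, Mx1, Cxcl9 or Cxcl11, which says only that these letters are not there. A match is a description of sequence and not a measured binding site.
Eif2ak2 at chr6:21941118-21941167, plus strand: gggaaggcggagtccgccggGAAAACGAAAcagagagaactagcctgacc
Samd9 at chr4:32138946-32139014, minus strand: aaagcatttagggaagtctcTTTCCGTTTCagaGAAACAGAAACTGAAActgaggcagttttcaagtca
Gbp2 at chr2:234005676-234005725, plus strand: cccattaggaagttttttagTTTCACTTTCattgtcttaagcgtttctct
Ifit3 at chr1:241527262-241527311, plus strand: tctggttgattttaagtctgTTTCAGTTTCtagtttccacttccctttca
Cxcl10 at chr14:15988816-15988852, plus strand: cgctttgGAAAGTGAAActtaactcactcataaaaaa
B2m at chr3:129549160-129549209, plus strand: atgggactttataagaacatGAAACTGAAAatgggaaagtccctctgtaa

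Interferon-induced chemokines, which attract T cells through the receptor Cxcr3, were found in few nuclei. Cxcl11 had 0 UMIs in saline members, 6 in LPS members and 38 in poly(I:C) members (0, 6.64 and 99.5 CPM), at least 21.8-fold higher after poly(I:C). These 38 UMIs lay in 12 nuclei, 27 of them in 3. Cxcl9 had 0, 5 and 14 UMIs and Cxcl10 had 0, 0 and 14, each in 6 poly(I:C) nuclei; both were chosen after their values were seen. Cxcl11 was not confined to members, with 0, 9.31 and 68.9 CPM in excitatory nuclei and 0, 33.1 and 134 over all nuclei. Cx3cl1, a chemokine of neurons, stood at 41.1, 31.0 and 36.7 CPM and lacked the poly(I:C) surplus. The list summed to 94.4, 57.5 and 225 CPM, 2.39-fold higher after poly(I:C) (1.70 to 3.36) and 0.610 times saline after LPS (0.413 to 0.896). Of its 86 poly(I:C) UMIs, 50 (58.1%) lay in 3 nuclei, against 24.2% after saline and 11.5% after LPS. The poly(I:C) surplus of this list thus rested largely on few nuclei, a spread that the counting interval does not cover.

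Cxcl12, a chemokine of vascular and some neural cells, set that lower LPS sum. It had 29 UMIs in saline members, 0 in LPS members and 1 in poly(I:C) members, at least 13.3-fold lower after LPS. The 29 UMIs lay in 10 nuclei, 9 of which also held a UMI of an endothelial, mural or fibroblast marker, as did 11 of the other 311 saline members. Over all nuclei Cxcl12 was likewise higher after saline, at 66.8 CPM against 10.1 and 10.8. Sparc, a matrix protein gene strong in vessels, had 23, 1 and 5 UMIs, and Cst3, a protease inhibitor gene strong in glia, had 39, 17 and 4. Without nuclei holding a vascular marker (301, 258 and 216 members left), the chemokine list's ratio was 1.11 after LPS and 3.67 after poly(I:C) (2.37 to 5.80), and the Cst3 ratio after LPS went from 0.317 to 0.625 (0.298 to 1.30).

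Class I antigen presentation genes lay higher after poly(I:C), with sums of 274, 291 and 411 CPM in saline, LPS and poly(I:C) members. The ratio was 1.5 after poly(I:C) (1.20 to 1.87) and 1.06 after LPS (0.875 to 1.29), beside 1.36 after poly(I:C) in excitatory nuclei (1.24 to 1.49). B2m, the light chain of class I molecules, had 8, 7 and 13 UMIs and was 2.80-fold higher (1.07 to 7.78), with the 13 UMIs in 6 nuclei. Erap1, which trims peptides in the endoplasmic reticulum, stood at 24.4, 42.0 and 44.5 CPM. The chaperones Canx, Pdia3 and Calr stood at 100, 97.3 and 134, at 83.7, 88.5 and 107, and at 27.4, 19.9 and 39.3. Together these chaperones made up most of the list's sum in each library, and each was highest after poly(I:C). The sum is thus not a measure of class I molecules alone. The intervals of the Erap1 and Canx ratios include 1.

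The receptors for these signals did not share the poly(I:C) surplus. Ifnar1, a type I interferon receptor chain, had 31, 35 and 15 UMIs (47.2, 38.7 and 39.3 CPM), and Ifnar2 had 20, 26 and 7. Ifngr1, of the type II receptor, had 26, 17 and 5 UMIs (39.6, 18.8 and 13.1 CPM), with ratios of 0.475 after LPS (0.242 to 0.910) and 0.331 after poly(I:C) (0.0992 to 0.876). Jak1, the kinase bound to both receptors, stood at 104, 83.0 and 62.9 CPM, lower after poly(I:C) at 0.607 (0.365 to 0.980). The list of cytokine receptors and signalling genes had ratios of 0.837 after LPS (0.721 to 0.972) and 0.942 after poly(I:C) (0.783 to 1.13).

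Targets of NF-kB, the factor downstream of the LPS receptor, were not higher in members as a sum. Their sum had ratios of 0.878 after LPS (0.697 to 1.11) and 0.730 after poly(I:C) (0.529 to 0.997). Nfkb1 had 55, 71 and 34 UMIs, Ripk2 had 28, 49 and 11, and Sod2 had 18, 22 and 4. Over saline and LPS, Nfkb1 supplied 41.0% of the list's UMIs, and 22 of the 26 targets had under 20 UMIs. The sum therefore says little about the targets that were rarely detected. Il6, Il1b, Tnf, Ifnb1, Tlr3, Tlr4, Icam1 and Vcam1 had 0 UMIs in the members of all 3 libraries.

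**Figure D5:**
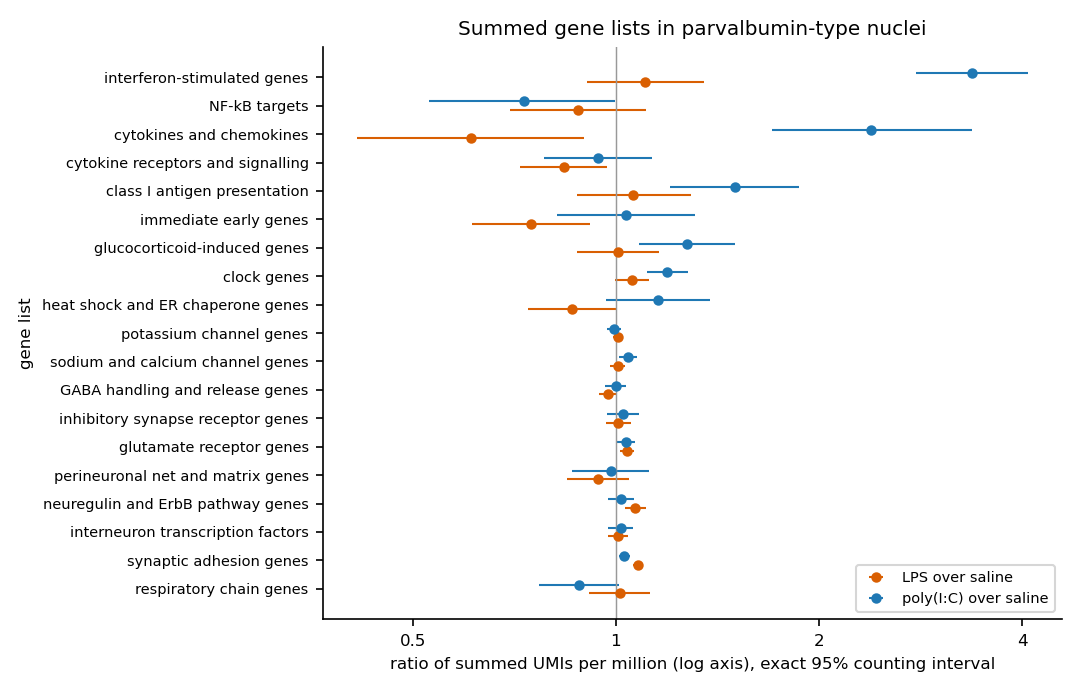
Ratio of summed CPM after LPS and after poly(I:C) to saline for the 19 gene lists in parvalbumin-type nuclei (log axis), with exact 95% counting intervals and a line at 1. Interferon-stimulated genes (3.37) and cytokines and chemokines (2.39) stand farthest to the right after poly(I:C), while the lists of channels, receptors and release genes lie close to 1. Of the poly(I:C) UMIs of cytokines and chemokines, 58.1% lay in 3 nuclei.

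Genes of neuronal function were mostly close to saline levels after both treatments, as were measured genes in general. Their median log2 ratio was -0.014 after LPS and 0.0006 after poly(I:C), beside -0.021 and -0.031 over all genes. Over 10 lists of channels, receptors, release, matrix, neuregulin, transcription factor, adhesion and respiratory genes, 226 genes had 20 UMIs over saline and LPS, of which 1 was at least 2-fold higher and 2 were lower. Over saline and poly(I:C) 210 were measured, with 0 higher and 4 lower. These shares, 0.442% and 0.885% after LPS and 0 and 1.90% after poly(I:C), stand beside 1.4% and 2.24% and beside 1.59% and 3.67% over all genes. Such shares depend on how many UMIs a gene has, and the lists were not matched to all genes on this. The 4 lower after poly(I:C) were Rab3a, Bace1, Kcnn3 and Gabrg1, and the intervals of the latter 2 include 1. After LPS they were Rab3a and Cacnb1, whose interval includes 1, with Vcan higher.

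Potassium channel genes summed to ratios of 1.01 after LPS (0.989 to 1.03) and 0.994 after poly(I:C) (0.972 to 1.02). Among the Kv3 genes that set the spike's repolarisation, Kcnc1 had ratios of 0.894 (0.774 to 1.03) and 1.06 (0.893 to 1.26), and Kcnc2 of 1.12 (1.06 to 1.19) and 1.11 (1.03 to 1.20). Kcna2, an axonal Kv1 subunit, stood at 117, 86.3 and 65.5 CPM, with a poly(I:C) ratio of 0.559 (0.341 to 0.887). Kcnj3, a G protein-gated inward rectifier, was 1.26-fold and 1.23-fold higher, and Kcnma1, the BK channel, stood at 0.860 and 0.848 times saline. The single genes thus differed modestly in both directions around an even sum.

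Sodium and calcium channel genes gave 1.01 after LPS (0.981 to 1.03) and 1.04 after poly(I:C) (1.01 to 1.08). Scn1a, the main sodium channel gene of these cells, stood at 740, 796 and 880 CPM, 1.19-fold higher after poly(I:C) (1.03 to 1.37). Cacna1e, of R-type calcium channels, stood at 259, 155 and 160, with ratios of 0.598 after LPS (0.475 to 0.753) and 0.618 after poly(I:C) (0.453 to 0.832). Sptbn4, the spectrin of the axon initial segment, stood at 148, 194 and 241, with ratios of 1.31 (1.02 to 1.70) and 1.63 (1.21 to 2.19). Both treated libraries lay on the same side of saline for each of these genes, and they share that saline library.

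GABA handling and release genes gave 0.973 after LPS (0.945 to 1.0) and 0.999 after poly(I:C) (0.964 to 1.04). Slc32a1, the vesicular GABA transporter, had 10, 20 and 9 UMIs. Rab3a, a vesicle GTPase, had 28, 14 and 6 UMIs (42.6, 15.5 and 15.7 CPM), with ratios of 0.363 after LPS (0.177 to 0.714) and 0.369 after poly(I:C) (0.125 to 0.908). Pclo, of the active zone, had 593, 800 and 253 UMIs, a ratio of 0.734 after poly(I:C).

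Receptor genes included some of the differences with narrow intervals. Gria4, which encodes the AMPA receptor subunit GluA4, stood at 2254 CPM after saline, 2925 after LPS and 2716 after poly(I:C), with ratios of 1.30 (1.22 to 1.38) and 1.21 (1.11 to 1.31). Its ratios were 1.49 and 1.60 in Sst-type nuclei and 1.03 and 1.02 in excitatory nuclei. Gabbr2, a GABA-B receptor subunit, stood at 554, 417 and 579 CPM, lower after LPS at 0.753 (0.650 to 0.872). The glutamate receptor list had ratios of 1.04 after LPS (1.01 to 1.06) and 1.04 after poly(I:C) (1.0 to 1.07).

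Perineuronal net and matrix genes gave 0.940 after LPS (0.847 to 1.04) and 0.982 after poly(I:C) (0.861 to 1.12). Acan, the core proteoglycan of the net, had 30, 29 and 20 UMIs (45.7, 32.1 and 52.4 CPM), and Hapln4, a link protein, stood at 45.7, 52.0 and 73.3. The intervals of the Acan and Hapln4 ratios to saline include 1 after both treatments. Vcan, another proteoglycan, had 12, 36 and 7 UMIs and was 2.18-fold higher after LPS (1.11 to 4.6).

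Transcription factor, adhesion and neuregulin genes included some of the most abundant of the lists. Ppargc1a, the coactivator that drives mitochondrial and synaptic genes in these cells, stood at 4847, 4633 and 4631 CPM, and the transcription factor Mef2c at 796, 917 and 1006, 1.26-fold higher after poly(I:C) (1.10 to 1.44). Cntnap2, which clusters Kv1 channels, stood at 6986, 8546 and 8106, with ratios of 1.22 (1.18 to 1.27) and 1.16 (1.11 to 1.21). Nrg1, the neuregulin that binds Erbb4, stood at 930, 1146 and 631, with 83 of the LPS UMIs in 1 nucleus. In members that also held Lhx6 or Sox6 its LPS ratio was 0.665, on the other side of 1 from the 1.23 over all members.

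Among state-dependent lists, immediate early genes, which follow neuronal activity, stood at 298, 223 and 309 CPM, a ratio of 0.749 after LPS (0.612 to 0.916) and 1.04 after poly(I:C) (0.817 to 1.31). Homer1 supplied most of the list, with 149, 162 and 79 UMIs, while Fos had 3, 4 and 0. After thinning of members the LPS ratio was 0.918 (0.647 to 1.30), an interval that holds both 1 and the unthinned ratio. The LPS ratio was also below 1 in excitatory (0.820, 0.782 to 0.860) and Vip-type nuclei (0.397, 0.227 to 0.682). Glucocorticoid-induced genes were 1.27-fold higher after poly(I:C) (1.08 to 1.5), with Sgk1, a kinase, at 221, 229 and 306. Clock genes were 1.19-fold higher after poly(I:C) (1.11 to 1.28), mostly through Rora, at 2176, 2449 and 2734. Hsph1, a heat shock protein, had 48, 27 and 27 UMIs and stood at 0.409 times saline after LPS (0.245 to 0.668).

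Over all genes, the largest LPS surpluses by the interval bound nearest 1 were in genes of low or moderate level. Of 7865 genes, 0 had an interval wholly at 2-fold or more above saline, and 5 had one wholly at 2-fold or more below it. The genes named here and below are the extremes of all measured genes, and their intervals are not adjusted for that choice. Fign, a microtubule-severing enzyme, had 32, 97 and 25 UMIs and was 2.20-fold higher after LPS (1.46 to 3.4), and Sbno2, a transcriptional coregulator, had 5, 26 and 9 and was 3.78-fold higher (1.43 to 12.6). Camk2n1, an inhibitor of CaMKII, had 7, 29 and 12 UMIs and was 3.01-fold higher (1.29 to 8.14). Chpt1, a phospholipid synthesis enzyme, stood at 198, 335 and 259 CPM, 1.69-fold higher (1.37 to 2.10). Sars1, the seryl-tRNA synthetase, had 18, 58 and 21 UMIs, 2.34-fold higher (1.36 to 4.22). Ankfn1, with 9, 42 and 9 UMIs, had 10 of the LPS UMIs in 1 nucleus, and its ratio was 0.69 in members without those markers of other neurons.

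The lowest genes after LPS, beside Cxcl12 and Sparc, included Clmn, with 28, 6 and 3 UMIs and 6.42-fold lower (2.61 to 19), and Cracdl, with 57, 22 and 11 and 3.57-fold lower (2.15 to 6.12). Tmem200a had 36, 12 and 12 UMIs, and Prrc2a had 30, 10 and 9; both were 4.13-fold lower. Lzts1 had 29, 11 and 4 UMIs and was 3.63-fold lower (1.76 to 8.05). Clmn, Cracdl and Lzts1 were low in both treated libraries, which share the saline library.

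Besides interferon-stimulated genes and Cxcl11, the highest genes after poly(I:C) by the interval bound nearest 1 were Pcsk1, described below, and AABR07066700.1. The latter had 15, 41 and 34 UMIs and was 3.90-fold higher (2.07 to 7.71). Next came Stat4, with 9, 20 and 20 UMIs and 3.82-fold higher (1.66 to 9.54). The actin regulator Cfl2 had 7, 22 and 17 and was 4.18-fold higher (1.65 to 11.9), and Tmem44 had 10, 19 and 20 and was 3.44-fold higher (1.54 to 8.23). Stat4 encodes a transcription factor activated by interleukin and interferon receptors. Its UMIs were spread over 9, 19 and 20 nuclei. Pcsk1, a prohormone convertase, had 6, 14 and 19 UMIs, 5.45-fold higher (2.09 to 16.7), with a ratio of 1.07 in members without those markers of other neurons.

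The lowest genes after poly(I:C) included several that lay partly in the Adarb2-positive members. Gpc5, a heparan sulfate proteoglycan, had 184, 215 and 28 UMIs (280, 238 and 73.3 CPM), 3.82-fold lower after poly(I:C) (2.56 to 5.90), with 108, 65 and 12 of these UMIs in members that held Adarb2. Hdac9, a histone deacetylase, stood at 466, 336 and 225 CPM, 2.07-fold lower (1.62 to 2.66), with 174 of 306 saline UMIs and 30 of 86 poly(I:C) UMIs in such members. Tafa1, a secreted neurokine, stood at 466, 250 and 220, 2.12-fold lower (1.66 to 2.73). Cpne4 had 89, 55 and 13 UMIs, 3.98-fold lower (2.21 to 7.76), and Slc39a10, a zinc transporter, 51, 49 and 8, 3.70-fold lower (1.75 to 9.04). The part of the Adarb2-positive members in these differences was not tested.

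Set against each other, the LPS and poly(I:C) members had 3.8% of 7152 genes 2-fold or more above poly(I:C) after LPS and 1.48% below. Of the 9 interferon-stimulated genes measured, 6 were at least 2-fold lower after LPS. This is a description, since Usp18, Herc6, Samd9 and Rnf213 reached the UMI minimum through their poly(I:C) count. Usp18 stood at 0.0745 times its poly(I:C) level (0.0140 to 0.258) and Herc6 at 0.148 (0.0528 to 0.364). Znfx1 alone of the 9 was over 2-fold higher, at 2.82, with an interval that includes 1 (0.835 to 14.8). Higher after LPS were Csk, with 22 UMIs against 0, Prkd1, with 48 against 4, and Gpc5, 3.24-fold (2.18 to 5.00), with 57 of its 215 LPS UMIs in 1 nucleus. Hbb-b1, a haemoglobin gene, had 12, 8 and 18 UMIs, 16 of the last in 1 nucleus.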

How the data were processed

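Nuclei of whole brain were isolated with a Miltenyi extraction buffer and an iodixanol gradient and made into 10x 5′ libraries, per the labels' protocols. The authors deposited raw UMI count matrices with 30560 features for 3 libraries of 25435, 11211 and 15001 barcodes (saline, LPS, poly(I:C)), made with Cell Ranger 7.0.0 on mRatBN7.2, per the submitters' processing notes. Treatment of introns is not given in the sources used here. Barcodes with at least 500 detected genes were kept (21343, 10491 and 13116). Features were matched by symbol, and of the 493 symbols in the gene lists 28 were not found. Pvalb, of the rule and the markers, was not found either. None of these was analysed here.

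UMIs of the members were summed per library and divided by all their UMIs (CPM). Ratios of 2 libraries carry the exact conditional 95% interval, and levels and shares the exact Poisson and Clopper-Pearson intervals. UMIs may come from 1 nucleus and nuclei from 1 animal, so intervals cover counting error only. A count of 0 was set to 3 for a bound. Genes with at least 20 UMIs over both libraries were measured, the rule's genes left out, and called at 2-fold. Thinning drew 1000 UMIs a nucleus. Scripts used Python 3.11.15, numpy 2.4.6, scipy 1.17.1, pandas 2.3.3 and scanpy 1.11.5 and were tested on simulated data. Doublets were not removed beyond the genes the rule bars. As an alternative, Scrublet's automatic threshold marked 0 nuclei after saline and after LPS, where it had not worked, and 5.36% after poly(I:C), 20 of them members.

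The members, the 19 gene lists and the tests were chosen with earlier results of these data known. The text names, per comparison, genes from the 10 highest and the 10 lowest by the interval bound nearest to 1, in each list up to 4 by the bound farthest from 1 and, in the neuronal function lists, up to 4 with the highest saline level, markers and the rule's genes. Other genes were chosen after their values were seen: Gbp2, Ifi44, Ddx58, Pml, Mx1, Mx2, Ifit3, Znfx1, Cx3cl1, Cxcl9, Cxcl10, Fos, Scn1a, Slc32a1 and genes named to account for a count or a zero. Some genes of the lists and markers are not reported here. Promoters are from RefSeq, GRCr8.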

Additional observations from a re-analysis of the deposited data

Results flagged for a closer look

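In 4 genes the members and another kind of neuron lay on opposite sides of 1 in the same comparison, each beyond its counting interval and at least 2-fold in members. Only named genes were searched, and these 4 had been named for their extreme ratio in members. Their member intervals thus lay off 1 by that choice, and the contrasts are a description. None of these differences between kinds of nuclei was tested over animals. Plch1, a phospholipase C, was 2.08-fold higher after LPS than after saline in members and stood at 0.569 times saline in excitatory nuclei (0.395 to 0.816). Its ratio in members was 1.25 after thinning. Lzts1, a protein of the postsynaptic density, stood at 0.276 times saline after LPS in members and at 1.18 times saline in excitatory nuclei (1.04 to 1.32). Gpc5 was 3.24-fold higher after LPS than after poly(I:C) in members and stood at 0.848 in excitatory nuclei, with 57 of the members' 215 LPS UMIs in 1 nucleus. Meis2, a transcription factor of subcortical and olfactory GABAergic neurons, was 3.31-fold higher after LPS than after poly(I:C) in members (94 against 12 UMIs, in 36 and 10 nuclei). Its ratio was 0.5 in Sst-type nuclei (0.299 to 0.843) and 0.359 in Vip-type nuclei (0.155 to 0.822).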

How the results depend on the processing

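No paired analysis was possible because each treatment is 1 library. The alternative that also required a Pvalb UMI was not run, since Pvalb was not analysed here. Members with no vascular marker, and sums without the nucleus holding most UMIs, were chosen after seeing the data. The interferon-stimulated ratio of poly(I:C) to saline was 2.53 without markers of other neurons and 4.91 without its most abundant gene, and otherwise 2.96 to 3.82. The LPS to poly(I:C) ratio was 0.393 with at least 3 enriched-gene UMIs, 0.397 without markers of other neurons and 0.245 without the most abundant gene. Member shares after saline, LPS and poly(I:C) were 2.61, 3.21 and 2.39% at 1000 genes, 1.01, 1.95 and 1.11% with at least 3 UMIs, 1.05, 1.86 and 1.13% with Lhx6 or Sox6, 0.914, 1.5 and 1.15% without markers of other neurons, and 0.713, 0.591 and 0.879% thinned first. Counts of genes past 2-fold moved mainly with the UMI minimum. At 50 and at 1 UMI they were 12 and 618 higher and 21 and 797 lower for LPS over saline, 7 and 539 higher and 31 and 1168 lower for poly(I:C) over saline, and 43 and 960 higher and 10 and 478 lower for LPS over poly(I:C), from 110, 176, 104, 240, 272 and 106. Thinned members gave 117 lower for LPS and 134 lower for poly(I:C) over saline and 114 higher for LPS over poly(I:C), and members with 1000 genes gave 164 lower for the last. Lists that crossed 1 were chemokines for LPS over saline (1.11 without vascular markers) and glutamate receptors for LPS over saline (0.997 without the most abundant gene). Single genes crossed 1 without markers of other neurons: Ankfn1 0.69 and Gabrg3 0.958 for LPS over saline, and Cacnb2 0.939, Hbb-b1 1.29, Npas3 0.958 and Ptprt 0.931 for LPS over poly(I:C). With Lhx6 or Sox6 required these were Fgf14 0.995 for poly(I:C) and Nrg1 0.665 for LPS over saline, and Npas3 0.925 and Rorb 1.73 for LPS over poly(I:C). Cacna2d1 was 1.02 for LPS over saline in thinned members, Cntnap5b 0.836 for poly(I:C) over saline without called doublets, and Hbb-b1 for LPS over poly(I:C) 1.28 with at least 3 UMIs and 1.48 without its top nucleus. Of the other single-gene values under alternatives, 2204 lay within the interval of the reported value and 140 outside it. The cause of each shift was not tested. Depth limits genes under 20 UMIs most, above all after poly(I:C).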
